A study of Mus musculus with 12 samples.

Results

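The core clock and clock output genes measured here were 10 genes: the activators Arntl and Clock, the repressors Nr1d1, Nr1d2, Per1, Per2, Per3 and Ciart, and the output factors Dbp and Tef. They were found by symbol among the 18193 genes that have a probe set of their own on the array, where they hold 25 probe sets, and each gene was read from whichever of its probe sets was brightest on average across 12 arrays. Of the 10 genes, 10 were bright enough to be tested, with means at percentiles 39.6 (Arntl) to 95.2 (Tef) of the 12654 genes tested. RNA was from mouse skeletal muscle according to the title of the study. Each array has a number of its own in its title and was taken here as 1 animal. There were 4 groups of 3 arrays, from knockout of Stat5a and Stat5b (KO) or wild type (WT). They were KO with growth hormone (GH), WT with GH, KO without GH, and WT without GH. STAT5A and STAT5B carry the signal of the GH receptor to the genome. The labels give no dose, route or duration of GH, no age, sex or strain, no Cre driver and no time of day at which muscle was taken, and 1 of their notes places the deletion in blood cells.

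The mammalian clock is a transcriptional loop. CLOCK and the product of Arntl, also called BMAL1, bind E-boxes (CACGTG) and switch on Dbp and the genes of their own repressors: the Per genes, Nr1d1, Nr1d2 and Ciart. The PER and CHRONO proteins then repress CLOCK and BMAL1, the REV-ERB proteins repress Arntl, and DBP and TEF act on D-boxes (TTATGTAA) of output genes. In mouse tissues on a light-dark cycle Arntl RNA is highest around the end of the night, Nr1d1 RNA around the middle of the day, Dbp, Per3 and Per1 RNA later in the day and Per2 RNA around dusk, so that Arntl and the E-box driven genes run in opposite phase. Per1 and Per2 are also switched on quickly by glucocorticoids and by stimuli that induce immediate early genes.

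The targeted genes were lower in the arrays labelled KO. Stat5b signal was 362 ± 25.2 in KO and 1794 ± 101.0 in WT with GH, and 428 ± 63.7 in KO and 2820 ± 162 in WT without GH (SD, n = 3 each). Stat5a signal was 40.2% of WT with GH and 40.6% without. Of 7 skeletal muscle markers 7 were tested, at a median percentile of 99.97 among genes with a probe set, against 30.5 for 4 hepatocyte and 27.2 for 3 lymphocyte and 35.0 for 2 red cell markers. Markers of other cells of muscle tissue were also well represented, with median percentiles of 97.5 for fibroblasts, 83.9 for adipocytes, 73.7 for endothelium and 71.1 for macrophages, and 48.6 for neutrophils. The arrays with GH also differed from those without in technical controls. Poly-A transcripts spiked into the RNA read 442 to 467 (geometric mean per array) when GH was given, against 129 to 168 otherwise. The 3 prime over 5 prime ratio of beta actin, a measure of RNA and labelling quality, spanned 0.887 to 1.01 on arrays with GH, against 0.805 to 0.864 on the rest. The same ratio of Gapdh overlapped between these sets, at 0.795 to 0.860 with GH and 0.834 to 0.877 without. GH, the labelling of the RNA and any difference in sampling time therefore cannot be told apart. Summed signal of 4 neutrophil markers spanned 1284 to 1530 in KO with GH, 2523 to 2617 in WT with GH, 235 to 306 in KO without GH and 189 to 285 in WT without GH. Of the 3 tested, 2 fell in KO relative to WT with GH, as Ciart and Nr1d1 did. With GH 2 of the 3 rose in KO and 3 in WT, whereas Nr1d1 fell in both genotypes and Ciart rose in WT only. Signal summed over 4 macrophage markers was 3512 to 3844 with GH and 4761 to 6912 without, and the part of such cells in the results below was not tested. With GH in KO, 5 of 7 muscle, 2 of 3 adipocyte, 4 of 4 macrophage, 2 of 4 endothelial and 0 of 4 fibroblast markers fell, and with GH in WT 0 of 7, 2 of 3, 2 of 4, 2 of 4 and 1 of 4. Of all genes tested, 15.4% fell and 8.93% rose with GH in KO, and 11.8% fell and 7.33% rose in WT. In bulk tissue, fewer cells of a type and less RNA per cell cannot be told apart.

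Among arrays with GH, 2 clock genes were lower in KO than in WT muscle, and 5 clock genes differed between arrays with and without GH in each genotype. A gene is said to have risen or fallen where limma's p, adjusted by Benjamini-Hochberg over all 12654 genes, was under 0.05, and differences are on the log2(signal + 25) scale, ± the standard error. With GH, 0 of 10 rose and 2 fell in KO relative to WT (Nr1d1 and Ciart), where 4.53% of all genes tested were called (2.42% higher and 2.11% lower). Without GH, 0 of 10 passed limma's threshold (1 at an unadjusted p under 0.05, Per3), where 1.45% of all genes were called. GH in KO went with a rise of 3 genes (Per1, Per2 and Per3) and a fall of 2 (Nr1d1 and Dbp), with 24.3% of all genes called (8.93% higher and 15.4% lower). GH in WT went with a rise of 4 (Per1, Per2, Per3 and Ciart) and a fall of 1 (Nr1d1), with 19.1% of all genes called (7.33% higher and 11.8% lower). With each array centred on its median over all probe sets, which lowers the GH differences of all genes, 1 rose and 3 fell in KO, and 4 rose and 3 fell in WT. The median log2 difference over the 10 genes was -0.03 for KO against WT with GH, 0.05 without GH, -0.12 for GH in KO and 0.08 for GH in WT, and over all genes it was -0.02, -0.00284, -0.06 and -0.06. The comparisons share groups of arrays, so that a gene that is high or low in WT with GH enters more than 1 of them.

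**Figure D1:**
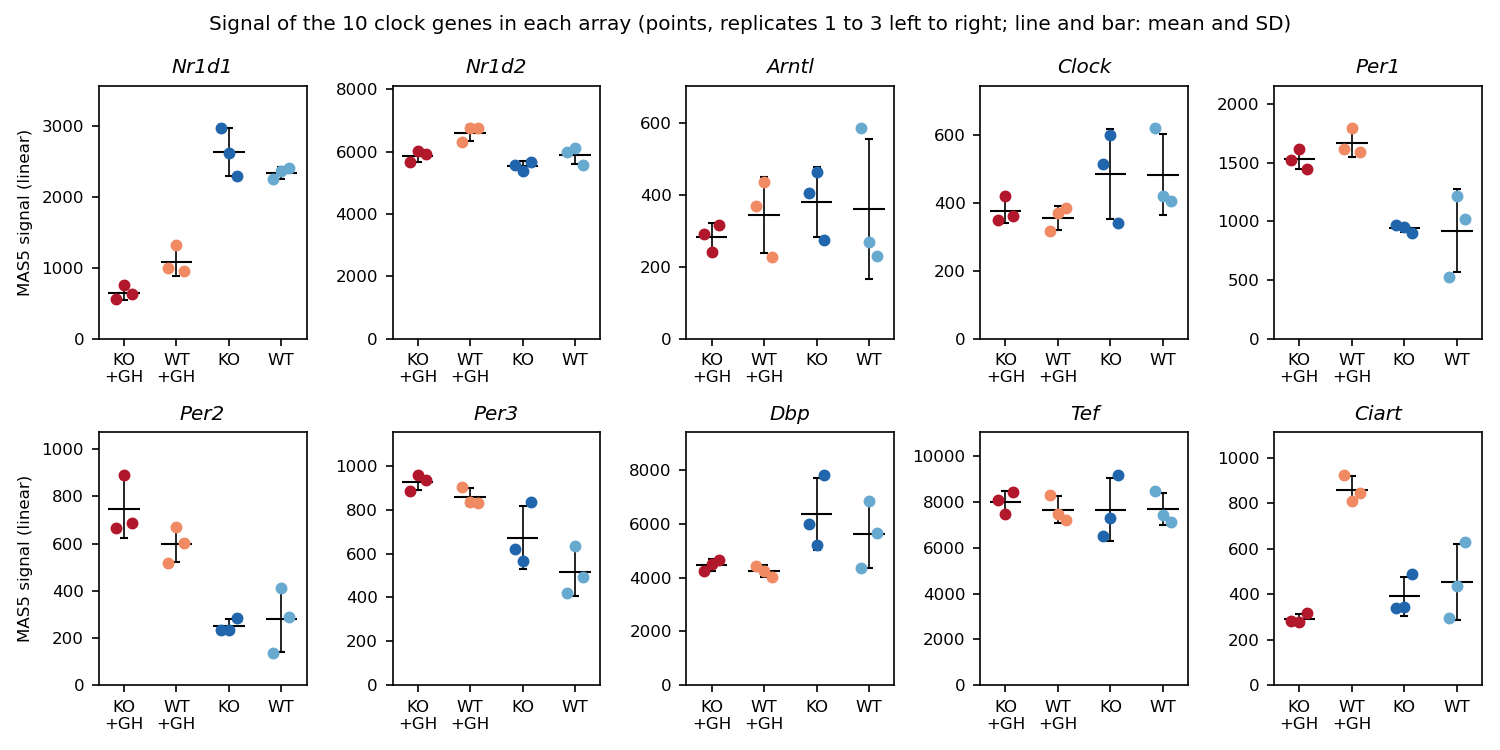
MAS5 signal on a linear scale (y axis) of the 10 clock genes in KO with GH, WT with GH, KO and WT (x axis), with 1 point per array and the mean and SD of 3 arrays. Ciart lay between 278 and 317 in KO with GH and between 809 and 927 in WT with GH, while Nr1d1 was lower in the 6 arrays with GH than in the 6 without.

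Ciart, also known as Chrono, encodes a repressor of CLOCK and BMAL1. Its signal was 280.8, 277.6 and 317.4 in KO with GH, 927.0, 808.5 and 847.6 in WT with GH, 339.8, 342.5 and 491.0 in KO without GH, and 293.1, 437.1 and 628.0 in WT without GH. The 3 arrays of WT with GH stood above the other 9, and the 3 of KO with GH lay below every untreated array but 1 of WT (293.1), the first array of that group, called WT 1 here. With GH, Ciart fell by 1.48 ± 0.205 in KO relative to WT (adjusted p = 0.000378), and its mean signal was 33.9% of WT. GH in WT went with a rise of 0.95 ± 0.205 (adjusted p = 0.00501), which was 0.69 without WT 1 (adjusted p = 0.0140). GH in KO had a log2 difference of -0.38 ± 0.205 (adjusted p = 0.203), and with each array centred on its median over all probe sets -0.56 (adjusted p = 0.0469). The difference between these 2 GH effects, KO minus WT, was -1.33 ± 0.29 (interaction, adjusted p = 0.0439), where 0.933% of all genes were called (0.308% lower). That call was lost without any 1 of 9 of the 12 arrays (adjusted p up to 0.132).

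Nr1d1 encodes REV-ERB alpha, the repressor of Arntl. Its signal was 561.9, 756.3 and 625.0 in KO with GH, 991.0, 1320 and 947.2 in WT with GH, 2973, 2622 and 2295 in KO without GH, and 2248, 2361 and 2412 in WT without GH. The 6 arrays with GH lay below the 6 without, and within the arrays with GH the 3 of KO lay below the 3 of WT. With GH, Nr1d1 fell by 0.72 ± 0.134 in KO relative to WT (adjusted p = 0.00411). The actin ratio of these arrays spanned 0.962 to 1.01 for KO against 0.887 to 0.932 for WT. Their Gapdh ratio was lower in KO, at 0.795 to 0.830 against 0.842 to 0.860 for WT. With the actin ratio as a covariate the difference of Nr1d1 was -0.54 (adjusted p = 0.321), while that of Ciart was -1.47 (adjusted p = 0.0446). The ratio did not overlap between KO and WT with GH, so this fit cannot separate it from genotype for either gene. Over all genes, the calls of this comparison went from 573 to 144 with the covariate. With GH Nr1d1 fell by 1.98 ± 0.134 in KO (adjusted p = 9.51e-08), and it fell by 1.10 ± 0.134 in WT (adjusted p = 5.46e-05), to 24.6% and 46.4% of the mean signal without GH. Among the 10 genes these were the lowest adjusted p-values of both GH comparisons. The difference between the GH effects was -0.88 ± 0.189 (interaction, adjusted p = 0.0379), and it missed the threshold without any 1 of 9 of the 12 arrays (adjusted p up to 0.128). By plain eBayes, without trend and robust, neither interaction passed (adjusted p = 0.133 for Nr1d1 and 0.13 for Ciart).

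Nr1d2 encodes REV-ERB beta, the close relative of the protein from Nr1d1, and its 2 probe sets gave different pictures. The brighter one had a signal of 5662, 6006 and 5918 in KO with GH, 6310, 6756 and 6750 in WT with GH, 5577, 5377 and 5677 in KO without GH, and 5974, 6109 and 5555 in WT without GH, so that the arrays of KO with GH lay below those of WT with GH without overlap. Such a gap was found for 3 of the 10 genes in that comparison and for 30% of all genes. Its log2 difference of -0.17 ± 0.0686 for KO against WT with GH did not pass limma's threshold (adjusted p = 0.212), nor did the GH differences of 0.08 in KO and 0.17 in WT (adjusted p = 0.429 and 0.103). The dimmer probe set, with a mean signal of 470 over the 12 arrays, was lower in KO than in WT with GH by -0.82 ± 0.126 (adjusted p = 0.00111 over all probe sets tested) and was higher with GH in WT by 0.64 ± 0.126 (adjusted p = 0.00264). In KO it had a GH difference of -0.15 ± 0.126 (adjusted p = 0.436), and the interaction was -0.79 ± 0.178 (adjusted p = 0.0575). For this probe set the signs in these comparisons were those of Ciart.

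The start regions of both genes that fell in KO with GH are shown here, since the E-box is the site through which the clock drives both. They come from RefSeq (GRCm38.p6), 250 bases before to 50 after the start of transcription, read 5′ to 3′ on the strand of the gene, with motif matches in capitals. Ciart lies on the minus strand at chr3:95882179-95882478 and Nr1d1 on the minus strand at chr11:98775328-98775627.
Ciart: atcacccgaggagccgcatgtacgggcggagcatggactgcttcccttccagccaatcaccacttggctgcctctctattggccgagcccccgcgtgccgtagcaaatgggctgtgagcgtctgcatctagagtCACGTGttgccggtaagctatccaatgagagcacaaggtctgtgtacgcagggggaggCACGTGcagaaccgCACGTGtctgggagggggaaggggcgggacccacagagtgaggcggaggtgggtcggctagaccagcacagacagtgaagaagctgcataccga
Nr1d1: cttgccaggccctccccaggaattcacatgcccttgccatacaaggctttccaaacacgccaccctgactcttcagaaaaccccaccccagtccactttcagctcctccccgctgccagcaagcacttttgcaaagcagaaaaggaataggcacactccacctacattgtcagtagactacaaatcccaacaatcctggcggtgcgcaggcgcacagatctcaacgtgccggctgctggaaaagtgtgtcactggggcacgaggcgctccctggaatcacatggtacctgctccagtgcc
The window of Ciart holds 3 E-boxes (CACGTG), which begin 116, 58 and 44 bases before the start, and 7.15% of 32851 mouse promoter windows of this length hold at least 1. The window of Nr1d1 holds 0 matches to the 5 motifs searched on both strands. Those were the E-box, the D-box (TTATGTAA), the STAT site called GAS (TTCNNNGAA), the cyclic AMP element (TGACGTCA) and AGGTCA. The last is the core of the ROR element, whose flanking bases were not searched. The windows of Ciart and Nr1d1 hold 0 GAS motifs, a motif found in 8.30% of all windows. Only exact matches within the window were sought, so sites farther from the start or with other letters, E-boxes included, were not seen. A match is a run of letters and no measured binding.

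The 3 Per genes, whose proteins form the repressor complex of the clock, had higher RNA with GH in both genotypes. Per1 signal was 1525, 1615 and 1445 in KO with GH, 1614, 1796 and 1589 in WT with GH, 965.5, 955.7 and 901.1 in KO without GH, and 525.7, 1219 and 1018 in WT without GH. Every array with GH lay above every array without. GH went with a rise of 0.68 ± 0.207 in KO (adjusted p = 0.0273) and of 0.92 ± 0.207 in WT (adjusted p = 0.00724). The untreated array WT 1 was the lowest of the 12 arrays, and without it the rise in WT was 0.57 (adjusted p = 0.00133). In KO the call was lost without any 1 of the 6 KO arrays (0.64 to 0.72 over all arrays left out, adjusted p up to 0.0883).

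Per2 signal was 664.7, 892.8 and 688.7 in KO with GH, 517.8, 671.4 and 602.3 in WT with GH, 232.3, 233.3 and 285.7 in KO without GH, and 134.9, 413.5 and 287.0 in WT without GH. The lowest array with GH lay above the highest without. GH went with a rise of 1.48 ± 0.265 in KO (adjusted p = 0.00115) and of 1.15 ± 0.265 in WT (adjusted p = 0.0081), or 0.74 without WT 1 (adjusted p = 0.00991). Of the other 2 probe sets of Per2, 1 rose in both genotypes (1.01 in KO and 0.97 in WT), while the dimmest rose in KO (0.81, adjusted p = 0.00556) and had a difference of 0.03 in WT (adjusted p = 0.92).

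Per3 signal was 886.8, 960.1 and 935.9 in KO with GH, 903.1, 836.9 and 832.2 in WT with GH, 619.0, 566.4 and 833.7 in KO without GH, and 420.3, 633.2 and 493.7 in WT without GH. The groups with and without GH did not overlap within either genotype, although KO 3 (833.7) lay above 1 array of WT with GH (832.2). Such a gap was found for 6 of the 10 genes in KO and 7 in WT, and for 44.4% and 34.3% of all genes. GH went with a rise of 0.47 ± 0.147 in KO (adjusted p = 0.0311) and of 0.72 ± 0.147 in WT (adjusted p = 0.00319). The KO call was lost without any 1 of 5 arrays (adjusted p up to 0.127). All 6 probe sets of Per3 had a positive GH difference in both genotypes, 0.07 to 0.56 in KO and 0.29 to 0.99 in WT. The GH effect on the Per genes did not pass the interaction test, with differences of -0.23 ± 0.293 for Per1, 0.34 ± 0.375 for Per2 and -0.26 ± 0.208 for Per3 (adjusted p = 0.841, 0.816 and 0.727). These rest on single untreated arrays: Per1 had 0.12 without WT 1 and -0.47 without WT 2, Per2 had 0.74 without WT 1 and 0.01 without WT 2, and Per3 had -0.13 without WT 1, -0.41 without WT 2 and -0.10 without KO 3. With the actin ratio as a covariate the GH differences in KO were 1.39 for Per1, 2.13 for Per2 and 0.80 for Per3. They were larger than without the covariate but did not pass (adjusted p = 0.237, 0.175 and 0.365). In WT Per1 and Per3 passed (adjusted p = 0.0395 and 0.0494) while Per2 and Ciart did not (adjusted p = 0.0719 and 0.145). The ratio did not overlap between arrays with and without GH, so this fit cannot separate it from GH. Per1 and Per3 in KO also missed the threshold with each array centred on its median (0.50 and 0.29, adjusted p = 0.0842 and 0.116) and by plain eBayes (adjusted p = 0.058 and 0.0581).

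Genes known to answer glucocorticoids and immediate early genes moved on the same arrays as Per1 and Per2. Of 10 glucocorticoid responsive genes 8 rose and 0 fell with GH in KO (median 1.47), and 10 rose and 0 fell in WT (median 1.58). Among them the transcription factor gene Cebpd rose by 2.67 ± 0.0851 in KO and by 2.55 ± 0.0851 in WT. Of 13 immediate early genes 9 rose and 1 fell with GH in KO (median 1.10), and 5 rose and 1 fell in WT (median 0.29). Of all genes tested, 24.3% were called for GH in KO and 19.1% for GH in WT. In KO relative to WT with GH, 8 of the 13 rose and 1 fell, where 4.53% of all genes were called. Of the glucocorticoid responsive genes 0 rose and 4 fell there. Per1 and Per2 had differences of -0.12 ± 0.207 and 0.31 ± 0.265 in that comparison (adjusted p = 0.835 and 0.633). The part of glucocorticoid or of other acute stimuli in the Per results was not tested.

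**Figure D2:**
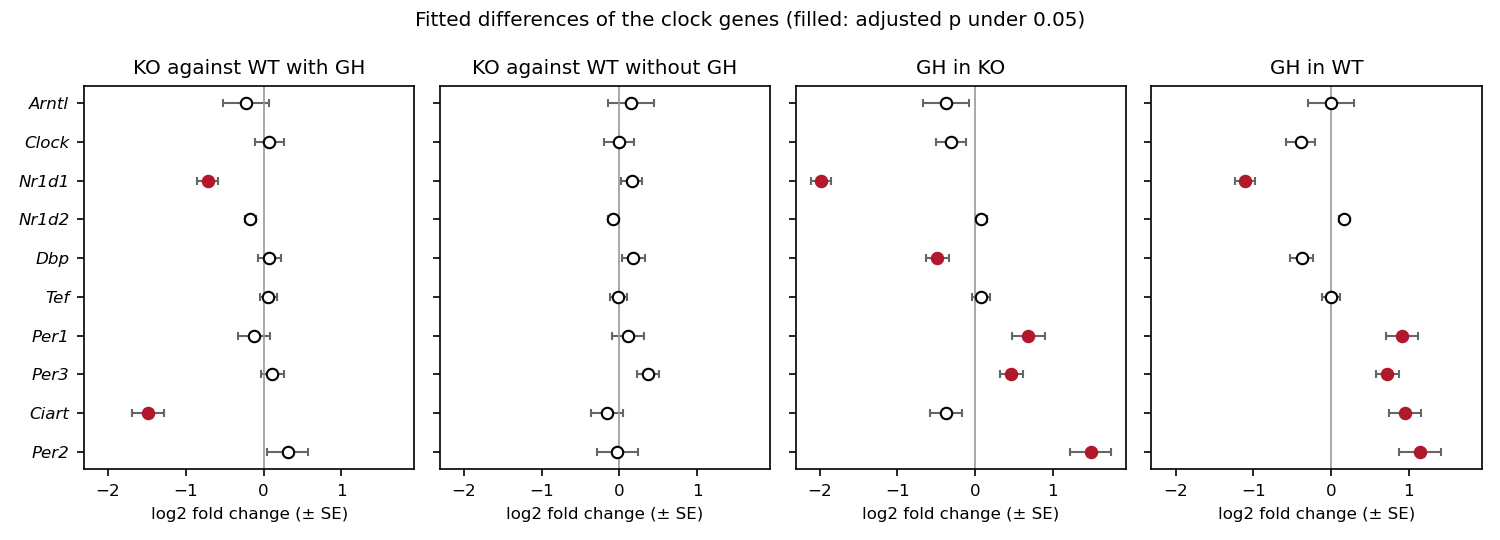
Log2 difference ± SE (x axis) of the 10 genes in the 4 comparisons of 2 groups, with genes down the page from Arntl to Per2. Filled points passed limma's threshold: Nr1d1 lay at -1.98 and -1.10 for GH, while Per2 lay at 1.48 and 1.15.

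A pair of Per start regions is shown for the motifs they carry, since the Per genes rose together: Per1 at chr11:69098699-69098998 on the plus strand and Per3 at chr4:151044616-151044915 on the minus strand, with motif matches in capitals as above.
Per1: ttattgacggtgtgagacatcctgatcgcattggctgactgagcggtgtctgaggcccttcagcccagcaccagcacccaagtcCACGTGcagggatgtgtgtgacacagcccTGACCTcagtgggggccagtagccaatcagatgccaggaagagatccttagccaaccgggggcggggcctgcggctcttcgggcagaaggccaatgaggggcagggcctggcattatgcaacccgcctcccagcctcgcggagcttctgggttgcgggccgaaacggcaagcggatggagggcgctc
Per3: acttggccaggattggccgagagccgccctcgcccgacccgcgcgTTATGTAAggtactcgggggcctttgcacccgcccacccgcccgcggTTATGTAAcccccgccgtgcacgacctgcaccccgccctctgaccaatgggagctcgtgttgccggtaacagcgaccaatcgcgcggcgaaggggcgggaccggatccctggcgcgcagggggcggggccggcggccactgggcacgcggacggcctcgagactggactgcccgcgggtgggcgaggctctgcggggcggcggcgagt
The Per1 window holds an E-box that begins 166 bases before the start. It also holds AGGTCA, the core of the ROR element, on the opposite strand, beginning 137 bases before the start. The other start region that RefSeq gives for Per1 holds a GAS motif and no E-box. The Per3 window holds 2 D-boxes, which begin 205 and 158 bases before the start, and 0.938% of all windows hold a D-box. Of 14 windows of the clock genes, 4 held an E-box, 1 a D-box and 4 the ROR core AGGTCA (16.3% of all windows). A GAS motif was in 2 of them and the cyclic AMP element in 0 (1.79% of all windows). Per2 has no entry in that table.

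The activators showed no call with their brightest probe sets. Arntl signal was 289.8, 242.1 and 317.3 in KO with GH, 369.0, 435.5 and 227.2 in WT with GH, 405.0, 464.2 and 273.1 in KO without GH, and 586.1, 268.6 and 230.6 in WT without GH. The groups overlapped in each comparison of 2 groups. Its GH differences were -0.37 ± 0.298 in KO and -0.00107 ± 0.298 in WT (adjusted p = 0.395 and 0.999), and the spread within groups was wide, with an SD of 0.676 on the log2 scale in WT without GH against a median of 0.177 over all genes. Its dimmer probe set, with a mean signal of 115, rose with GH in WT by 0.91 ± 0.288 (adjusted p = 0.0392). Clock signal was 350.2, 421.9 and 362.5 in KO with GH, 317.6, 369.5 and 385.1 in WT with GH, 514.2, 601.7 and 340.3 in KO without GH, and 621.7, 421.3 and 407.6 in WT without GH. The arrays of WT with GH lay below those of WT without, as was the case for 7 of the 10 genes in 1 direction or the other and for 34.3% of all genes, but the difference of -0.39 ± 0.19 did not pass (adjusted p = 0.17). It was -0.20 without WT 1 (adjusted p = 0.487), and -0.58 with each array centred on its median (adjusted p = 0.0374). In KO it was -0.31 ± 0.19 (adjusted p = 0.259), and it was -0.14 without KO 2, the highest KO array (adjusted p = 0.662), and -0.53 without KO 3, the lowest (adjusted p = 0.0398). Of its other 3 probe sets, the brightest fell by 0.55 ± 0.143 with GH in KO (adjusted p = 0.0115), and the dimmest, with a mean signal of 63.3, had a difference of 0.74 ± 0.27 (adjusted p = 0.0615).

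Dbp and Tef encode related transcription factors of the PAR bZIP family, and they were among the brightest of the 10 genes. Dbp signal was 4238, 4524 and 4665 in KO with GH, 4456, 4254 and 4040 in WT with GH, 5999, 5237 and 7846 in KO without GH, and 4357, 6843 and 5655 in WT without GH. The arrays with and without GH did not overlap in KO. That held for 6 of the 10 genes and for 44.4% of all genes. In WT the Dbp signals overlapped through WT 1 (4357). With GH, Dbp fell by 0.49 ± 0.149 in KO (adjusted p = 0.0283), and in WT the difference was -0.38 ± 0.149 (adjusted p = 0.092). Without WT 1 the difference in WT was -0.55 and passed (adjusted p = 0.0123), as it did without KO 3 (-0.38, adjusted p = 0.046), and without KO 3 the difference in KO was -0.32 and did not pass (adjusted p = 0.116). In KO it also missed the threshold without any 1 of the 3 arrays of KO with GH (adjusted p = 0.0565 to 0.0958), with the mean of both probe sets (-0.06, adjusted p = 0.81), with the actin ratio as a covariate (-0.05, adjusted p = 0.969), with centring on the genes kept (adjusted p = 0.0651) and by plain eBayes (adjusted p = 0.0667). The interaction was -0.11 ± 0.211 (adjusted p = 0.901). The other probe set of Dbp, which ends in _s_at and may read more than 1 transcript, had the opposite sign in KO (0.36 ± 0.145, adjusted p = 0.0877) and in WT (0.12 ± 0.145, adjusted p = 0.615).

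Tef had a signal of 7486 to 8438 in KO with GH, 7218 to 8319 in WT with GH, 6522 to 9202 in KO without GH and 7122 to 8464 in WT without GH. Its groups overlapped in each comparison, and its differences lay between -0.01 and 0.07 (adjusted p at least 0.684). A dimmer probe set of Tef, also ending in _s_at, rose with GH by 0.55 ± 0.148 in KO and by 1.02 ± 0.148 in WT (adjusted p = 0.0152 and 0.000286), and the third did not pass. The start region of Dbp is shown because it is 1 of the 2 windows of these genes with a GAS motif, the site type to which STAT5 binds; it lies on the plus strand at chr7:45704997-45705296.
Dbp: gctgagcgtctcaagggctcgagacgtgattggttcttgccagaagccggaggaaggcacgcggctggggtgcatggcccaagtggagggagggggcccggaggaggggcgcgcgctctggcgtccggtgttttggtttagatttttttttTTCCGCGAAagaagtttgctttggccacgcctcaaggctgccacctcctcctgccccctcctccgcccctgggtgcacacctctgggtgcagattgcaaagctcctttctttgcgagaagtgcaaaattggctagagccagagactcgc
The GAS motif begins 99 bases before the start, and Dbp had differences of 0.07 ± 0.149 with GH and 0.18 ± 0.149 without GH for KO against WT (adjusted p = 0.861 and 0.711).

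**Figure D3:**
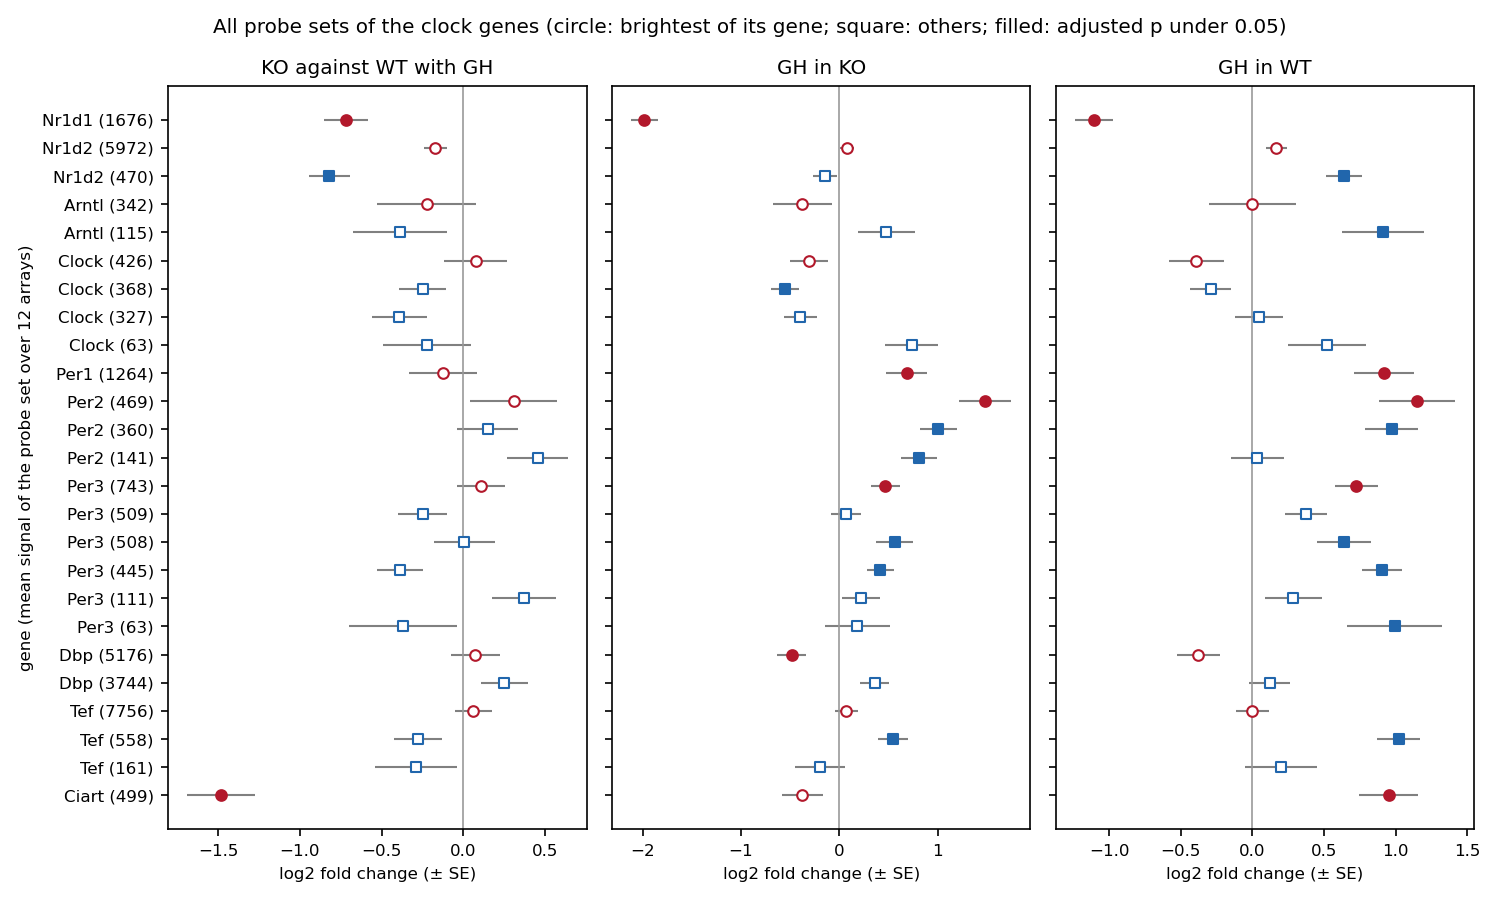
Log2 difference ± SE (x axis) of all 25 probe sets of the 10 genes (y axis, with the mean signal of each) for KO against WT with GH, GH in KO and GH in WT. Circles are the brightest probe set of a gene, squares the others, and filled symbols had an adjusted p under 0.05 over all probe sets tested; the probe sets of Nr1d2, Arntl, Clock, Dbp and Tef differ in the sign of a GH difference.

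Without GH no clock gene passed the test between KO and WT muscle, and the spread between animals was large for some of them. In WT the SD on the log2 scale was 0.740 for Per2 and 0.676 for Arntl. It was 0.0513 for Nr1d1 and 0.0714 for Nr1d2, against a median of 0.177 over all genes. The 10 log2 differences lay between -0.16 and 0.37 with standard errors of 0.0686 to 0.298, and the lowest adjusted p was 0.329. That value belonged to Per3, with a difference of 0.37 ± 0.147, and it was 0.24 without WT 1, 0.21 without KO 3, 0.08 without both and 0.52 without WT 2. Among the arrays without GH, the clock genes stood farther from their group than genes in general on WT 1, KO 3 and WT 2. They did so to a lesser degree on WT 3 and KO 2. Each group mean includes the array itself, so an outlying array shifts the deviations of the rest of its group the other way. The deviations on WT 2 and WT 3 are thus not independent of those on WT 1. Array WT 1 had the highest Arntl and Clock signal of all 12 arrays and the lowest Per1, Per2 and Per3 signal, and within its group it also had the lowest Dbp and Ciart. Its deviations from the WT mean were 0.77 for Arntl, 0.37 for Clock, -0.70 for Per1, -0.81 for Per2, -0.26 for Per3, -0.34 for Dbp and -0.53 for Ciart on the log2 scale. Tef was 0.14 above the WT mean there. The median absolute deviation on WT 1 was 0.356 over the 10 genes and 0.143 over all genes tested. On WT 2 it was 0.225 against 0.112, on WT 3 0.131 against 0.104, on KO 2 0.123 against 0.0934, and on KO 1 0.106 against 0.108.

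On KO 3 Arntl, Clock, Per2, Per3, Dbp and Ciart deviated in the direction opposite to WT 1, and Tef and Per1 in the same direction. It had the lowest Arntl and Clock signal of the 3 KO arrays, with deviations of -0.41 and -0.45, and the highest Per2, Per3, Dbp, Tef and Ciart, with deviations of 0.18 to 0.33. The median absolute deviation was 0.297 over the 10 genes and 0.129 over all genes. On the 6 arrays with GH the median over the 10 genes was 0.0559 to 0.11, against 0.0615 to 0.105 over all genes. On the second array of KO with GH it was 0.0866 against 0.0615. On both arrays Arntl and Clock thus deviated in the direction opposite to Per2, Per3, Dbp and Ciart, while Tef was above its group on both, Nr1d1 deviated by -0.06 on WT 1 and -0.19 on KO 3, and Per1 by -0.06 on KO 3. Between groups, GH went with lower Nr1d1 and higher Per1, Per2 and Per3, with no call for Arntl at its brighter probe set. Whether the animals with and without GH were sampled at different times of day was not tested, since no array was labelled with a time.

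**Figure D4:**
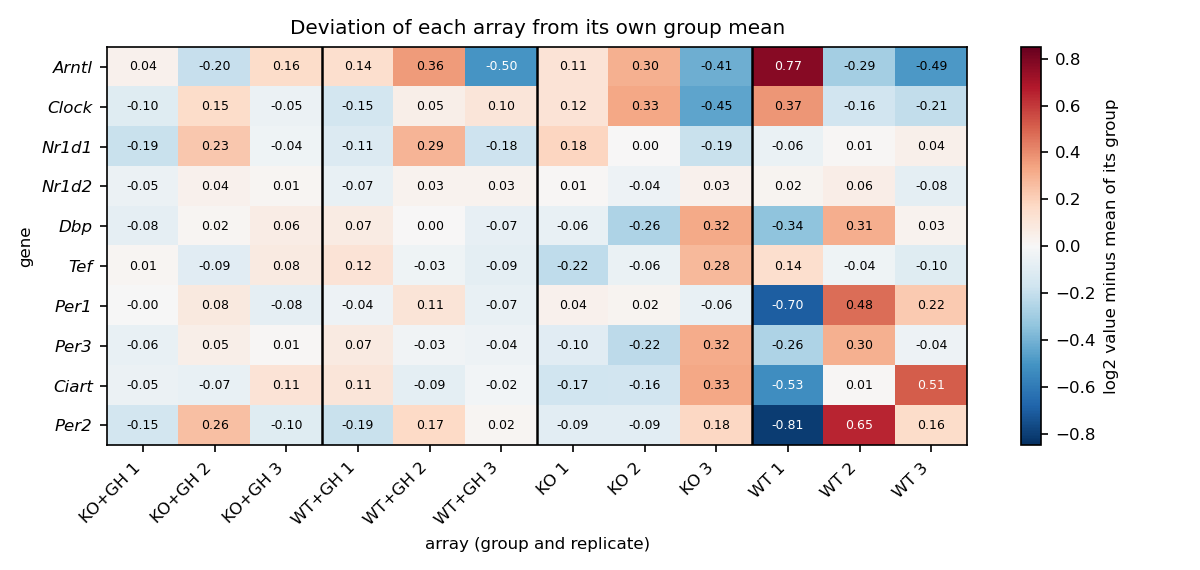
Log2 value of each gene minus the mean of its group, for each of the 12 arrays (x axis) and the 10 genes (y axis), in red where the array was above its group and in blue where below. WT 1 had 0.77 for Arntl and -0.81 for Per2, and KO 3 had -0.41 for Arntl and 0.33 for Ciart.

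Among other genes of the clock, 4 passed the test of GH in both genotypes. Of 15 such genes 13 had a probe set of their own and 11 were tested. GH in KO went with a rise of 3 (Cry2, Nfil3 and Csnk1d) and a fall of 1 (Bhlhe41), while 7 did not pass, with a median of 0.29. These 4 of 11 stand beside 24.3% of all genes called. GH in WT went with a rise of 5 (those 3, Csnk1e and Timeless) and a fall of 1 (Bhlhe41), while 5 did not pass, with a median of 0.26. These 6 of 11 stand beside 19.1% of all genes called. Cry2, the partner of the PER proteins in repression, had a signal of 968.4, 1006 and 771.1 in KO with GH, 838.6, 935.7 and 830.8 in WT with GH, 486.7, 461.9 and 479.4 in KO without GH, and 556.5, 753.7 and 625.0 in WT without GH. Every array with GH lay above every array without. It rose by 0.90 ± 0.123 in KO and by 0.42 ± 0.123 in WT (adjusted p = 0.00012 and 0.0264). Nfil3, a repressor that competes with DBP for D-boxes, rose by 0.98 ± 0.23 in KO and by 1.23 ± 0.23 in WT (adjusted p = 0.00828 and 0.00271). Csnk1d, a kinase that marks PER proteins for breakdown, rose by 0.54 ± 0.144 in KO and by 0.91 ± 0.144 in WT (adjusted p = 0.0139 and 0.000557). Bhlhe41, which represses at E-boxes, fell by 0.62 ± 0.162 in KO and by 0.61 ± 0.162 in WT (adjusted p = 0.0124 and 0.0162). Cry1 had GH differences of 0.40 ± 0.175 in KO and 0.04 ± 0.175 in WT (adjusted p = 0.11 and 0.886). Npas2, the relative of Clock, was too dim to test. By limma 0 of the 11 passed for KO against WT with GH (3 at an unadjusted p under 0.05), without GH (2) or for the interaction (1).

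The genes most like each called clock gene over the 12 arrays were neither among the 10 genes nor on the list of other clock genes. Likeness was Pearson's r of log2 values, and the arrays fall into those with and those without GH, so that a shared difference between these sets raises r. For Nr1d1 these were Yrdc, Ube2q1 and Arhgef10l (r = 0.981, 0.980 and 0.978), for Per1 Zfhx3, Ramp2 and Mcf2l (0.974, 0.958 and 0.949), and for Per2 Snhg6, Pcdhgc4 and Mcf2l (0.971, 0.961 and 0.960). For Per3 they were Rasa2, Ano1 and Rell1 (0.956, 0.948 and 0.945), for Dbp 2300009A05Rik, Lamtor4 and Trip6 (0.972, 0.961 and 0.956), and for Ciart Cdc42ep3, Poln and Pex10 (0.916, 0.913 and 0.908). Among the 10 genes, Per1 and Per2 were the most alike pair (r = 0.944), and Nr1d1 and Per2 had an r of -0.85.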

How the data were processed

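The values the authors deposited are linear intensity values (MAS5 signal) of 45101 probe sets from 12 Affymetrix arrays, 1 array per sample; MAS5 is named in the submitters' processing notes, without a version. On each array the mean without the lowest and highest 2% of probe sets was 500.0, and no detection calls were used. The number of arrays limits the precision. Groups follow the source labels. The numbers in the titles differ, and nothing states that animals were paired.

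Values were taken as log2(signal + 25). Control probe sets (64), those with several symbols (932) and those with none (9160) were left out. Genes were tested where the mean of the brightest probe set exceeded the 40th percentile (signal 51.3), 12654 in all, with limma 3.58.1 in R 4.3.3 (statmod 1.5.0): 1 mean per group over 12 arrays, 8 residual degrees of freedom, eBayes with trend and robust, 2-sided p adjusted over all genes. The 5 comparisons were KO against WT with GH and without GH, GH in KO, GH in WT, and their interaction. The method was tested on simulated data.

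The clock genes and the lists (other clock, rhythmic output, glucocorticoid responsive and immediate early genes, and cell type markers) were chosen with earlier results of these data known. All 10 clock genes were named, as were other clock genes, no more than 3 called genes of any further list, by lowest p, and the 3 genes most alike to each called clock gene. Alternatives changed the pseudocount, scaling, filter, probe set, fit, a covariate and the arrays kept.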

Additional observations from a re-analysis of the deposited data

Results flagged for a closer look

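Ciart and Nr1d1 passed limma's interaction test, in which the difference between arrays with and without GH is compared between KO and WT muscle. For Ciart the effect of GH in KO minus that in WT was -1.33 (adjusted p = 0.0439), from -0.38 ± 0.205 in KO and 0.95 ± 0.205 in WT. For Nr1d1 it was -0.88 (adjusted p = 0.0379), from -1.98 ± 0.134 in KO and -1.10 ± 0.134 in WT. Each had an adjusted p over 0.05 when any 1 of 9 arrays was left out. The call was lost in 16 of 24 alternatives for Ciart and in 13 of 24 for Nr1d1. For Ciart and Nr1d1 the interaction had adjusted p = 0.0548 and 0.0693 with median centring, and 0.13 and 0.133 by plain eBayes. With the actin ratio as a covariate it had adjusted p = 0.219 and 0.293. GH and the labelling of the RNA cannot be told apart in these arrays.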

How the results depend on the processing

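Of the 10 genes, the number called for KO against WT with GH was 2 without any 1 array and 1 with the actin ratio as a covariate. Without GH it was 0 under each alternative run. For GH in WT it was 5 to 6 without any 1 array and 3 with the actin ratio. For GH in KO it was 2 to 5 without any 1 array (2 without any 1 of the KO arrays with GH, 3 without KO 1 or KO 2), 3 when the probe sets of each gene were averaged, 2 by eBayes without trend and robust, and 1 with the actin ratio. For the interaction it was 0 to 1 without any 1 array, 1 with a pseudocount of 1, 1 with no filter, and 0 with median centring, the mean of all probe sets, plain eBayes or the actin ratio. With centring on the median of the genes kept, chosen after the data were seen, it was 1. The direction of the 14 called values was the same under each alternative run, while 64 of 1240 alternative values changed sign with no call on either side. With the mean of all probe sets, which brings in the dimmer Nr1d2 probe set, Nr1d2 was called for KO against WT with GH (-0.50, adjusted p = 0.00102) and for GH in WT (0.40, adjusted p = 0.00185). Centring on the median of all probe sets moved the median of all genes for GH to -0.24 in KO and -0.24 in WT, against -0.06 and -0.06 as deposited, called 4838 and 4429 genes against 3078 and 2416, gave 1 clock gene higher and 3 lower in KO and 4 higher and 3 lower in WT, and on that scale Per1 and Per3 in KO had 0.50 and 0.29 (adjusted p = 0.0842 and 0.116). Of the genes called for GH, 36.7% were higher in KO and 38.4% in WT; with that centring 13.3% and 11.1%, and with centring on the genes kept 49.9% and 50.4%. Without WT 1 and KO 3 together, the GH difference of Dbp in WT was -0.55 (adjusted p = 0.000855) and that of Clock in KO -0.53 (adjusted p = 0.00864). Over all genes, KO against WT with GH had 573 calls, 1300 from its own 6 arrays alone, 1028 without WT 1 and KO 3, 144 with the actin ratio, and 353 to 367 without 1 array of KO with GH. Without GH it had 184, against 39, 277 and 122 (without KO 2) and 111 by plain eBayes. With the actin ratio, GH had 123 calls in KO and 487 in WT, and the interaction 54 against 118, or 207 without WT 1 and KO 3, 77 by plain eBayes and 76 without the first array of KO with GH. No paired analysis was possible because each sample title has a number of its own.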

Other observations

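Of 11 genes known to follow the clock in mouse tissues, 10 had a probe set and were tested. With GH, KO muscle had higher RNA than WT muscle for 1 of them and lower RNA for 2, where 4.53% of all genes were called. The ubiquitin ligase gene Lonrf3 rose by 1.18 ± 0.2 in KO (447.3, 371.3 and 358.8 in KO with GH, against 142.3, 171.4 and 164.9 in WT with GH, adjusted p = 0.00206). Nampt, the NAD salvage enzyme, fell by 0.46 ± 0.0901 (3402, 3288 and 3246 in KO with GH, against 4655, 4417 and 4596 in WT with GH, adjusted p = 0.00643), and the mitochondrial carrier Ucp3 fell by 1.16 ± 0.219 (2734 to 2838 in KO with GH, against 6074 to 6642 in WT with GH, adjusted p = 0.00714). Without GH, 0 rose and 1 fell in KO, where 1.45% of all genes were called. That gene was Nampt, which fell by 0.39 ± 0.0901 (3128 to 3154 in KO, against 3583 to 4813 in WT, adjusted p = 0.0476).

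GH in KO went with a rise of 4 of these 10 genes and a fall of 1, where 24.3% of all genes were called. GH in WT went with a rise of 2 and a fall of 0, near the 19.1% of all genes called. The cell cycle inhibitor Cdkn1a rose by 1.999 ± 0.196 in KO and by 1.40 ± 0.196 in WT (adjusted p = 7.28e-06 and 0.000235), and the deubiquitinase Usp2 by 0.43 ± 0.11 in KO and by 0.50 ± 0.11 in WT (adjusted p = 0.0105 and 0.00542). Lonrf3 rose by 1.81 ± 0.2 in KO (adjusted p = 1.56e-05) and had a difference of 0.35 ± 0.2 in WT (adjusted p = 0.241), and its interaction was 1.45 ± 0.282 (adjusted p = 0.0196).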
